A study of Mus musculus with 30 samples.

Results

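A set of 10 genes of the NF-κB system were followed across the bulk RNA sequencing libraries of the series: the subunit genes Nfkb1, Nfkb2, Rel, Rela and Relb, the inhibitor-family genes Nfkbia, Nfkbie and Nfkbiz, and the feedback and survival genes Tnfaip3 and Birc3. The inhibitor family is called inhibitor genes below, although Nfkbiz encodes a nuclear co-activator. All 10 genes were chosen by name for their role, and these 10 members are 10 of 49315 genes in the count files and 10 of 21138 genes that had enough reads to be tested. The question they address is whether a STING agonist acts on NF-κB genes in tumour cells beyond its interferon response.

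B16F10 cells, a mouse melanoma line, and 6694c2 cells, a mouse pancreatic ductal adenocarcinoma (PDAC) line, both labelled C57BL/6, were kept in culture for 24 h with vehicle, IFNγ (100 ng/mL), IFNβ (1000 U/mL) or STING agonist (225 μg/mL). Each of the 8 groups had 3 libraries, sequenced to between 15543131 and 32266795 reads on genes. Each tumour type was represented by 1 cell line and each treatment by 1 dose and 1 time, and the vehicle was not described. The labels do not say whether the 3 libraries of a group came from separate cultures, so p-values measure only the spread between these libraries.

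NF-κB is a family of dimeric transcription factors that inhibitor proteins hold in the cytoplasm until a kinase complex marks those inhibitors for destruction. In the canonical branch the released dimers are mostly p65 (from Rela) with p50 (from Nfkb1), and in the non-canonical branch RelB pairs with p52 (from Nfkb2). The freed factors switch on genes of inflammation and survival, together with their own inhibitors, which end the response, and STING can activate this route beside the TBK1 and IRF3 route to type I interferon.

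Several of the members are used as readouts of NF-κB, and the stretches of promoter below carry letters that match its recognition sequence. Each is the 150 bases before a RefSeq transcription start on build GRCm38.p6, 5′ to 3′ on the gene's strand. Capitals mark matches on either strand to the 10-letter κB consensus GGGRNNYYCC, where R is A or G, Y is C or T and N is any base. Nfkb2 lies at chr19:46304587-46304736 on the plus strand, Rel at chr11:23770970-23771119 on the minus strand, Nfkbia at chr12:55492648-55492797 on the minus strand, Nfkbie at chr17:45555550-45555699 on the plus strand and Tnfaip3 at chr10:19015411-19015560 on the minus strand.
Nfkb2: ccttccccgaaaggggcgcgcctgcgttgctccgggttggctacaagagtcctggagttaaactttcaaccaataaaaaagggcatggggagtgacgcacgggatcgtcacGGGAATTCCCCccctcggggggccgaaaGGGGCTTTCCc
Rel: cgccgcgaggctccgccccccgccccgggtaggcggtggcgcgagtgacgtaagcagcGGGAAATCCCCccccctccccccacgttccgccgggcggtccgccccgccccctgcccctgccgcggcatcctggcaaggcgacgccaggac
Nfkbia: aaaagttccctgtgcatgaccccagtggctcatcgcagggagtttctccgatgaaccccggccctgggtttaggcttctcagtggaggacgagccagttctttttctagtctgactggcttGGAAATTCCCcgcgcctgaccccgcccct
Nfkbie: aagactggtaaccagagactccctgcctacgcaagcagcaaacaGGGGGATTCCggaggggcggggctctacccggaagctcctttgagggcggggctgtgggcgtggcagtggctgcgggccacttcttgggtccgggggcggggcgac
Tnfaip3: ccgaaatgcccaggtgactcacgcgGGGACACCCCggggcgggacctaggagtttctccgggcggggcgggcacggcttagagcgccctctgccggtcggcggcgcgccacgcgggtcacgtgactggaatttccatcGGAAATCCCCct

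RefSeq promoter windows, from 250 bases before to 50 after a start, were found for 7 of the 10 members. They came to 10 windows, with 3 for Nfkb2 and 2 for Tnfaip3, and 7 of these 10 windows held a κB match, against 8.46% of all 32851 windows. The matching windows belong to 5 members, and those of the other 2 starts of Nfkb2, not printed above, overlap and share the match GGGACTTTCC. The second start of Tnfaip3 had a window without the κB letters. In Nfkbia, which encodes the main inhibitor IκBα, the match GGGAATTTCC began 29 bases before the start. In Tnfaip3, which encodes the ubiquitin-editing inhibitor A20, GGGGATTTCC began 12 bases before the start and GGGACACCCC 125 bases before it. In Nfkb2, GGGGCTTTCC began 11 bases before the start, with an overlapping pair of matches at 39 and 38 bases, and Rel held such a pair at 92 and 91 bases. In Nfkbie, which encodes IκBε, GGGGGATTCC began 106 bases before the start. Rela and Birc3 had a window without the κB letters. None of the 10 windows held the core of the interferon-stimulated response element (ISRE) (3.44% of all windows), and only that of the first Nfkb2 start held the GAS letters TTCNNNGAA (8.30% of all windows), as TTCCCCGAA from 148 bases before the start. A match describes the letters and not a bound site. The members were chosen by name as NF-κB genes, so their share of windows with a match is a description and not a test.

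As a check on the lines, the summed level of 7 melanocyte genes lay between 15978 and 19985 CPM (reads scaled to a common library total) in B16F10 cells and between 17.4 and 120.4 in 6694c2 cells, where it lay between 79.6 and 81.3 with vehicle and between 17.4 and 20.96 with STING agonist. The sum of 7 epithelial genes lay between 11990 and 13976 CPM in 6694c2 cells. In B16F10 cells it lay between 14.5 and 20.9 CPM with vehicle and between 110.2 and 145.8 CPM with STING agonist. Over 182 genes specific to 6694c2 cells, the B16F10 STING agonist libraries carried 0.936 to 1.15% of the 6694c2 level, against 0.166 to 0.253% with vehicle, a mean of 0.415% with IFNβ and 0.330% with IFNγ. These libraries stand apart in that respect. In 6694c2 cells the share of B16F10-type transcripts, over 137 genes, had a mean of 0.539% with vehicle and 0.233% with STING agonist. The source of these transcripts was not tested. Leucocyte markers (6 genes) summed to at most 11.4 CPM and fibroblast markers (3 genes) to at most 3.09 CPM, and Cd3e and Itgam, which mark T cells and myeloid cells, were at 0 in both lines with vehicle and with STING agonist. In bulk RNA, fewer cells that express a gene and less RNA of it per cell cannot be told apart.

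Before treatment, the members were higher in the PDAC line. Of the 10 members, 9 were called higher in 6694c2 than in B16F10 vehicle cells and 0 lower (edgeR's quasi-likelihood test over all 24 libraries, adjusted p under 0.05). Over all genes tested the shares called were 28.7% higher and 29.3% lower. Tnfaip3 differed most. It stood at 60.3, 53.8 and 53.5 CPM, here scaled to TMM-normalized library size, in the 3 libraries of 6694c2 vehicle cells and at 1.34, 1.16 and 0.939 CPM in those of B16F10 cells, a log2 fold change of 5.61 (SE 0.13, edgeR adjusted p = 1.16e-32). The lines did not overlap for this gene in any treatment. Nfkbiz, which encodes the nuclear co-activator IκBζ, followed at 26.4 ± 1.23 against 4.83 ± 0.391 CPM (SD, n = 3 each, a log2 change of 2.46), and Nfkbia at 28.5 ± 1.75 against 7.34 ± 0.458 CPM (log2 fold change 1.95). The subunits differed less, from Rela (log2 fold change 1.14) through Rel (0.996), Relb (0.88) and Nfkb2 (0.86) to Nfkb1 (0.36). Birc3, which encodes the ubiquitin ligase cIAP2, had a log2 fold change of 0.74, and Nfkbie was not called (0.30, edgeR adjusted p = 0.0663).

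Per length, Rela was the highest member in both lines, at 17.1 ± 0.393 RPKM in B16F10 and 37.7 ± 0.803 RPKM in 6694c2 vehicle cells (SD, n = 3 each). In B16F10 cells Nfkb2 came next at 13.5 RPKM, then Nfkb1 at 5.08, Nfkbia at 4.65, Nfkbie at 3.65, Relb at 1.88, Nfkbiz at 0.963, Rel at 0.608, Birc3 at 0.523 and Tnfaip3 at 0.159 RPKM. In this order the libraries of Nfkb1 and Nfkbia overlapped, as did those of Rel and Birc3, and all other neighbours were separate. In 6694c2 cells Nfkb2 at 24.4 RPKM was followed by Nfkbia at 18.04, Tnfaip3 at 7.73, Nfkb1 at 6.51, Nfkbiz at 5.27, Nfkbie at 4.49, Relb at 3.48, Rel at 1.22 and Birc3 at 0.868 RPKM, and only Rel and Birc3 overlapped among neighbours. Tnfaip3 was thus last of the 10 members in one line and the fourth in the other. The lowest members rest on few reads, with 16 to 44 reads per library for Tnfaip3, 39 to 112 for Birc3 and 60 to 147 for Rel in B16F10 cells.

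**Figure D1:**
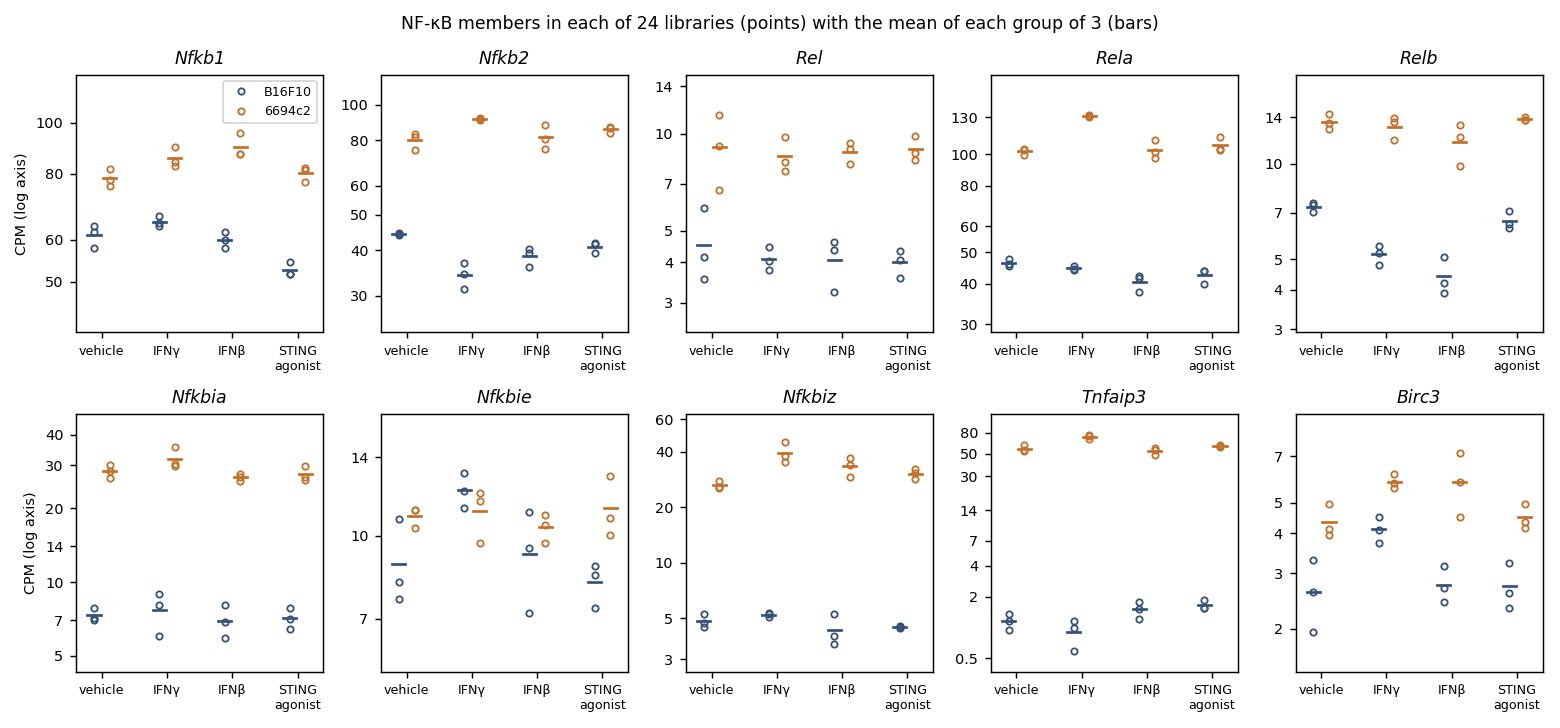
Level of each of the 10 members (y axis, CPM on a log axis) in each library by treatment (x axis), with B16F10 in blue and 6694c2 in orange; points are libraries and bars the means of 3 libraries. The lines are separated in every treatment for 9 members, while Nfkbie overlaps between them except with STING agonist, and the shifts with STING agonist are small beside the difference between lines.

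The STING agonist moved the RNA of the members little at 24 h in either line. Only RNA was read, without NF-κB protein or activity, and a response that had ended before 24 h would not be seen. In B16F10 cells 0 of the 10 members were called higher and 1 lower than with vehicle, against 1.93% and 1.53% of all genes, and 1 member had an unadjusted p under 0.05, as had 2738 of the 21138 genes (13%). The member called was Nfkb1, the gene of the p105 precursor of p50. It stood at 63.7, 62.2 and 58.0 CPM with vehicle and at 51.7, 51.7 and 54.4 CPM with STING agonist, and the groups did not overlap. Its log2 fold change was -0.23 (SE 0.07, edgeR adjusted p = 0.0300), a call that 9 of 15 alternative analyses kept. It was lost in the fit over all 24 libraries and when vehicle replicate 1 or 2 or any of the STING agonist replicates was left out, with an adjusted p of up to 0.181.

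The other subunits in B16F10 cells had log2 fold changes of -0.12 for Nfkb2, -0.13 for Rela, -0.16 for Relb and -0.19 for Rel, none called. Nfkb2 stood at 44.6, 44.2 and 43.9 CPM with vehicle and 39.1, 41.9 and 41.6 CPM with STING agonist (edgeR adjusted p = 0.521). The inhibitor genes, which NF-κB itself induces, stayed uncalled as well. Nfkbia was at 7.13, 7.02 and 7.86 CPM with vehicle and 7.83, 6.46 and 7.06 CPM with STING agonist (log2 fold change -0.06, 95% confidence interval -0.34 to 0.21, edgeR adjusted p = 0.939). The groups overlapped. For Nfkbie the log2 fold change was -0.13 and for Nfkbiz -0.11.

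Tnfaip3 had the highest fold change of the members in B16F10 cells and was not called. Its libraries stood at 1.34, 1.16 and 0.939 CPM with vehicle and 1.55, 1.56 and 1.86 CPM with STING agonist, without overlap (log2 fold change 0.53, 95% confidence interval -0.09 to 1.14, edgeR adjusted p = 0.492). The share of 6694c2-type transcripts moved with it. Scaled to total reads, the mean was 1.22 CPM with vehicle and 1.79 CPM with STING agonist, and that share at the 6694c2 vehicle level amounted to 0.116 and 0.529 CPM. With those reads subtracted the log2 fold change was 0.19 (edgeR adjusted p = 0.923). Birc3 stood at 2.62 ± 0.673 CPM with vehicle and 2.72 ± 0.465 CPM with STING agonist (SD, n = 3 each), or 0.06 on the log2 scale as a change.

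In 6694c2 cells 0 of the 10 members were called higher and 0 lower with STING agonist, against 0.203% and 0.156% of all genes. At an unadjusted p under 0.05 there was 1 member, beside 1650 of the 21138 genes (7.81%), DESeq2 also called 0, and each of the 15 alternatives gave 0. The 95% confidence intervals of the 10 members, each made for its own gene, lay between 0.809-fold and 1.32-fold. They cover only the spread between these libraries and are not a joint interval for the 10 members. In B16F10 cells the corresponding range was 0.691-fold to 2.21-fold, its upper end set by Tnfaip3. The member with the unadjusted p was Nfkbiz, at 27.8, 25.6 and 25.9 CPM with vehicle and 28.5, 30.6 and 32.4 CPM with STING agonist (log2 fold change 0.21, edgeR adjusted p = 0.572). Nfkbia stood at 26.7, 28.4 and 30.2 CPM with vehicle and 26.1, 26.8 and 29.8 CPM with STING agonist, and the groups overlapped. For Tnfaip3 the values were 60.3, 53.8 and 53.5 CPM with vehicle and 61.1, 58.1 and 59.9 CPM with STING agonist (log2 fold change 0.10, edgeR adjusted p = 0.802). The reads behind these values were 458 to 1047 per library for Nfkbia and 877 to 2183 for Tnfaip3 over the 4 treatments.

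An interaction term fitted to all 24 libraries asked whether both lines responded to the STING agonist alike. It differed for 0 of the 10 members in either direction, against 1.56% of all genes with a more positive effect in B16F10 cells and 0.568% with a less positive one. At an unadjusted p under 0.05 there were 3 members, Nfkb1, Nfkb2 and Rela, beside 2669 of the 21138 genes (12.6%), and DESeq2 called 0. The lower level of Nfkb1 in B16F10 cells was therefore not shown to be particular to that line (difference of log2 fold changes -0.25, edgeR adjusted p = 0.159).

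**Figure D2:**
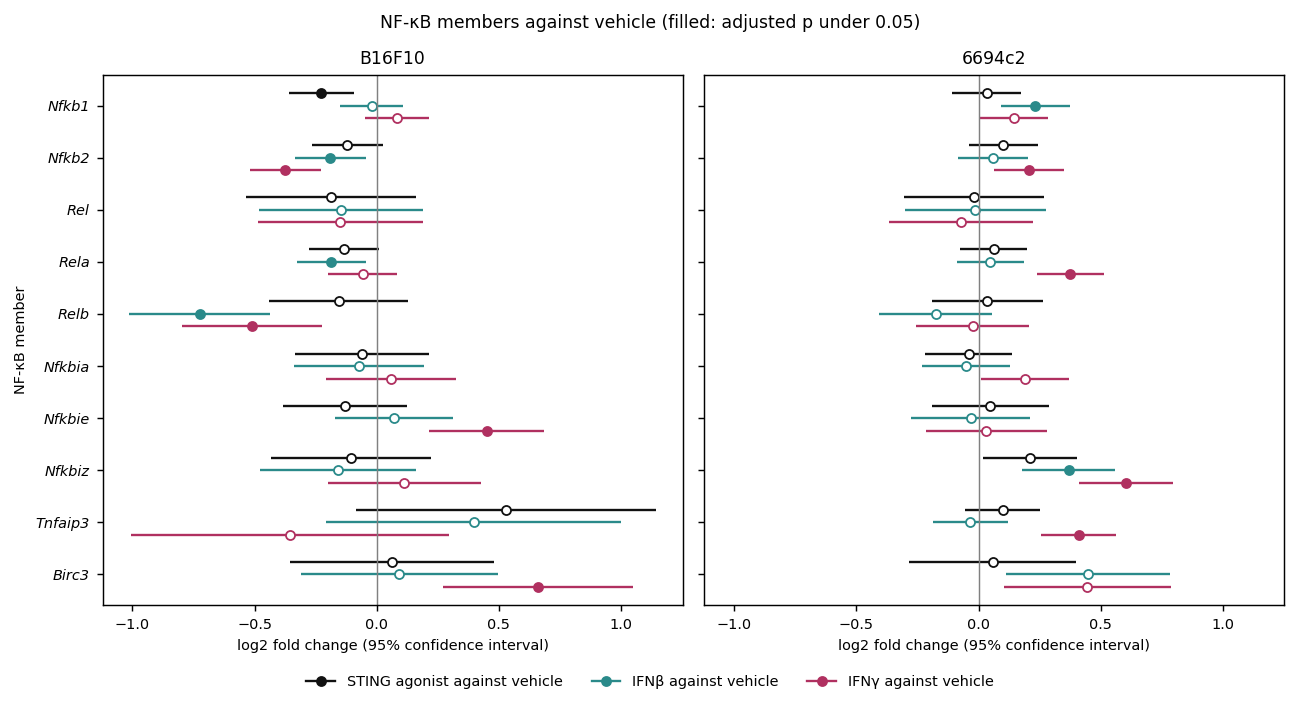
Log2 fold change against vehicle (x axis) of each member (y axis) for STING agonist, IFNβ and IFNγ in B16F10 (left) and 6694c2 cells (right), on the same scale; lines are 95% confidence intervals and filled points have an adjusted p under 0.05. With STING agonist only Nfkb1 in B16F10 cells is filled, at -0.23, while the interferons have 13 filled points over both lines.

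IFNβ, the cytokine that STING signalling induces, lowered subunit genes in B16F10 cells. It left 0 members higher and 3 lower, against 12.7% and 11.2% of all genes. The largest of these changes was in Relb, the subunit of the non-canonical branch, at 7.03, 7.5 and 7.43 CPM with vehicle and 3.92, 4.22 and 5.09 CPM with IFNβ. The groups did not overlap, and Relb fell by 0.73 on the log2 scale (SE 0.15, edgeR adjusted p = 1.39e-05) in all 15 alternatives. Nfkb2 (log2 fold change -0.19, edgeR adjusted p = 0.0431) and Rela (-0.19, edgeR adjusted p = 0.0438) also fell, each in 9 of 15 alternatives. Both calls were lost with no filter on low counts, with only the 6 libraries compared, and without IFNβ replicate 1 or any 1 of the vehicle replicates. No inhibitor or feedback gene was called.

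In 6694c2 cells IFNβ raised 2 members and lowered 0, against 10.4% and 7.86% of all genes. Nfkbiz rose from 27.8, 25.6 and 25.9 CPM with vehicle to 36.8, 33.8 and 29.3 CPM (log2 fold change 0.37, SE 0.09, edgeR adjusted p = 0.00342), without overlap and in all 15 alternatives. Nfkb1 rose from 75.9, 81.7 and 78.0 CPM to 87.3, 95.8 and 87.4 CPM (log2 fold change 0.23, edgeR adjusted p = 0.0134). This call was lost without IFNβ replicate 2 and with only the 6 libraries compared (edgeR adjusted p up to 0.107). Birc3 was just past the threshold, at 4.35 ± 0.519 CPM with vehicle and 5.82 ± 1.32 CPM with IFNβ (SD, n = 3 each, log2 fold change 0.45, edgeR adjusted p = 0.0534), and was called in 4 of 15 alternatives.

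With IFNγ, Nfkb2 fell in B16F10 and rose in 6694c2 cells, though the rise was called in only 8 of 15 alternatives. In B16F10 cells 2 members rose and 2 fell, against 12% and 10.8% of all genes. Nfkb2 fell from 44.6, 44.2 and 43.9 CPM with vehicle to 31.4, 34.5 and 36.9 CPM (log2 fold change -0.37, SE 0.07, edgeR adjusted p = 1.02e-05), and Relb fell to 4.80, 5.21 and 5.50 CPM (log2 fold change -0.51, edgeR adjusted p = 0.00339). Both groups lay below every vehicle library. Nfkbie rose from 8.18, 7.62 and 10.7 CPM to 12.1, 13.1 and 11.3 CPM (log2 fold change 0.45, edgeR adjusted p = 0.00153). Birc3 rose from 3.30, 2.61 and 1.96 CPM to 4.10, 4.50 and 3.74 CPM (log2 fold change 0.66, edgeR adjusted p = 0.00568), a call lost without vehicle replicate 3 (edgeR adjusted p = 0.113).

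In 6694c2 cells IFNγ raised 4 members and lowered 0, against 7.89% and 5.66% of all genes. Rela, the gene of p65, rose from 103.9, 99.8 and 103.3 CPM with vehicle to 132.4, 130.4 and 131.3 CPM (log2 fold change 0.38, SE 0.07, edgeR adjusted p = 4.87e-05). Nfkbiz rose to 35.3, 38.1 and 45.3 CPM (log2 fold change 0.60, edgeR adjusted p = 3.85e-06), and Tnfaip3 to 69.1, 77.0 and 74.2 CPM (log2 fold change 0.41, edgeR adjusted p = 6.94e-05). These 3 calls held in all 15 alternatives, and each IFNγ library lay above every vehicle library. Nfkb2 rose by a log2 fold change of 0.21 (edgeR adjusted p = 0.0445) and was called in 8 of 15 alternatives. With the replicate number as a block or with only the 6 libraries compared it was not called. It was also lost without vehicle replicate 2 or 3 or any 1 of the IFNγ replicates (edgeR adjusted p up to 0.237). Birc3 had a log2 fold change of 0.45 (edgeR adjusted p = 0.0790).

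The interferon effects on the members differed between the lines for 4 of the 20 combinations tested. For IFNβ, 0 members had a more positive effect in B16F10 cells and 2 a less positive one, against 5.9% and 6.16% of all genes. These were Relb (difference of log2 fold changes -0.52, edgeR adjusted p = 0.0359) and Nfkbiz (-0.50, edgeR adjusted p = 0.0494). For IFNγ, 0 had a more positive effect in B16F10 cells and 2 a less positive one, against 4.95% and 4.52% of all genes. Nfkb2 (-0.56, edgeR adjusted p = 5.08e-05) fell in B16F10 and rose in 6694c2 cells, and Rela (-0.42, edgeR adjusted p = 0.00122) rose in 6694c2 cells and had a log2 fold change of -0.06 in B16F10 cells. Both differences held in all 19 alternatives, while the rise of Nfkb2 in 6694c2 cells alone was called in 8 of 15.

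The direct comparison of the STING agonist with each interferon asks where the 2 kinds of treatment part. Those comparisons share the STING agonist libraries. The treatments were not matched in the strength of the interferon response. Of 25 interferon-response genes, 25 were lower with STING agonist than with IFNβ in each line, beside 11% of all genes in B16F10 and 9.53% in 6694c2 cells. Their median log2 fold change was -2.68 in B16F10 and -7.27 in 6694c2 cells. Whether the differences below follow from that gap was not tested. Against IFNβ in B16F10 cells, 1 member was higher and 1 lower with STING agonist, against 8.76% and 11% of all genes. Relb was higher, at 6.28, 6.46 and 7.11 CPM with STING agonist and 3.92, 4.22 and 5.09 CPM with IFNβ (log2 fold change 0.57, SE 0.15, edgeR adjusted p = 0.00190), and held in all 15 alternatives. The STING agonist libraries of Relb lay near those with vehicle, which they overlapped. Nfkb1 was lower, at 51.7, 51.7 and 54.4 CPM with STING agonist and 62.2, 59.95 and 58.0 CPM with IFNβ (log2 fold change -0.21, edgeR adjusted p = 0.0151). It was lost with only the 6 libraries compared and without IFNβ replicate 1 or STING agonist replicate 1 or 2, with an adjusted p of up to 0.0789.

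Against IFNγ in B16F10 cells, 2 members were higher and 3 lower with STING agonist, against 9.05% and 11% of all genes. Nfkb1 (log2 fold change -0.31, edgeR adjusted p = 7.12e-05) and Nfkbie (-0.58, edgeR adjusted p = 5.61e-05) were lower in all 15 alternatives. For Nfkbie the libraries stood at 8.79, 7.32 and 8.44 CPM with STING agonist and 12.1, 13.1 and 11.3 CPM with IFNγ. Birc3 was lower (log2 fold change -0.60, edgeR adjusted p = 0.0198), at 2.33, 2.60 and 3.24 CPM against 4.10, 4.50 and 3.74 CPM, though not by DESeq2 or without IFNγ replicate 2 or STING agonist replicate 1 or 2 (adjusted p up to 0.109). Nfkb2 was higher (log2 fold change 0.25, edgeR adjusted p = 0.00670), and this call was lost without IFNγ replicate 1 or STING agonist replicate 2 (edgeR adjusted p up to 0.151). Tnfaip3 was higher, at 1.55, 1.56 and 1.86 CPM against 0.586, 0.985 and 1.14 CPM (log2 fold change 0.88, edgeR adjusted p = 0.0360). It was lost without IFNγ replicate 1 or 2 or any of the STING agonist replicates (edgeR adjusted p up to 0.270), and with the 6694c2 reads subtracted (log2 fold change 0.69, edgeR adjusted p = 0.210).

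Against IFNβ in 6694c2 cells, 0 members were higher and 1 lower with STING agonist, against 7.95% and 9.53% of all genes. This was Nfkb1, at 82.0, 77.3 and 81.4 CPM with STING agonist and 87.3, 95.8 and 87.4 CPM with IFNβ (log2 fold change -0.20, edgeR adjusted p = 0.0370). The call was lost with no filter on low counts, without IFNβ replicate 2 and without any 1 of the STING agonist replicates (edgeR adjusted p up to 0.202). Against IFNγ, 0 members were higher and 3 lower, against 5.71% and 7.06% of all genes. Rela stood at 112.8, 103.6 and 103.2 CPM with STING agonist, below all IFNγ libraries (log2 fold change -0.31, edgeR adjusted p = 0.000544), as did Tnfaip3 (-0.31, edgeR adjusted p = 0.00213). Nfkbiz was lower by a log2 fold change of -0.39 (edgeR adjusted p = 0.00148), which was lost without IFNγ replicate 3 (edgeR adjusted p = 0.0629).

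**Figure D3:**
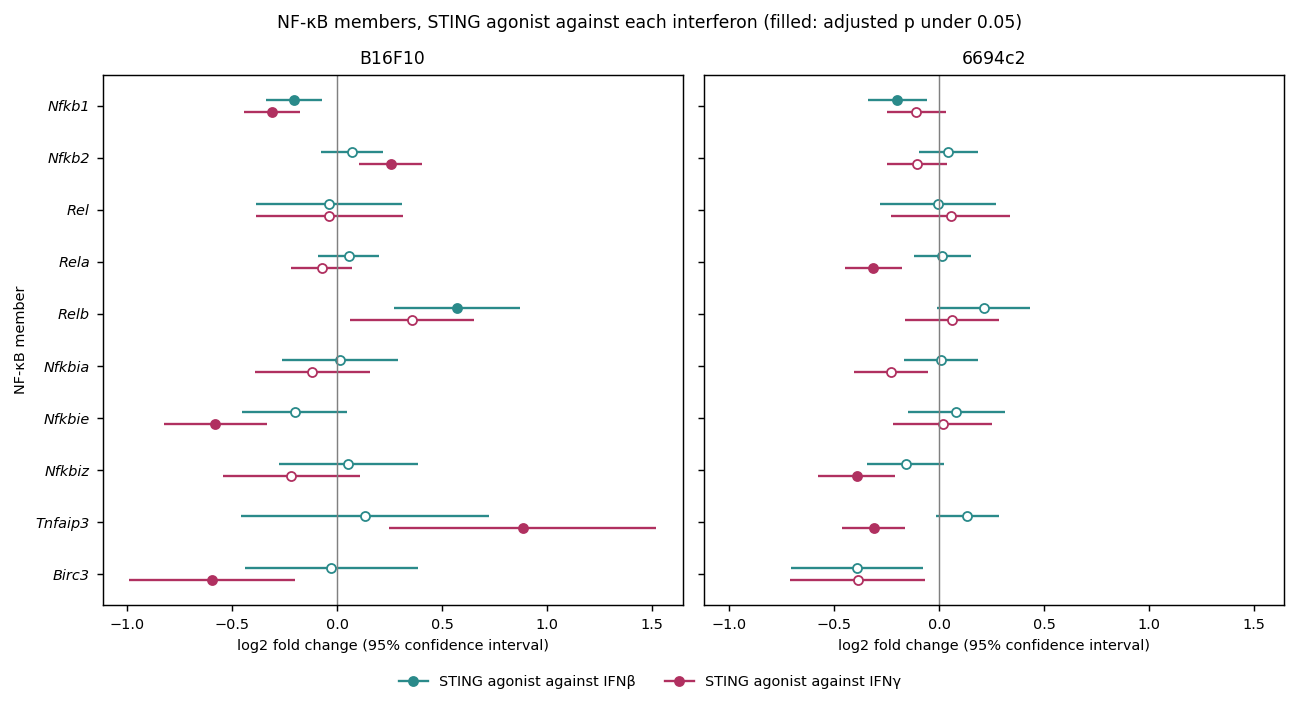
Log2 fold change (x axis) of each member (y axis) with STING agonist against IFNβ and against IFNγ in B16F10 (left) and 6694c2 cells (right); lines are 95% confidence intervals and filled points have an adjusted p under 0.05. Points to the right of 0 are higher with STING agonist, and of the filled ones only Relb against IFNβ and Nfkb2 and Tnfaip3 against IFNγ in B16F10 cells lie there.

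The members can be set beside the wider pathway. A list of 41 pathway genes held the kinases of the IKK complex, TRAF and cIAP proteins, receptor-proximal adaptors, ubiquitin-editing enzymes and further inhibitors. With STING agonist, 1 of these 41 rose and 0 fell in B16F10 cells (median log2 fold change -0.00), and 0 rose and 0 fell in 6694c2 cells (median 0.04). The shares of all genes called higher were 1.93% and 0.203%, and those called lower 1.53% and 0.156%. The gene was Birc2, which encodes cIAP1, the close relative of the product of Birc3, at 12.9 CPM with vehicle and 16.7 CPM with STING agonist (log2 fold change 0.37, edgeR adjusted p = 0.0140). It was called in 12 of 15 alternatives. With IFNβ, 13 of the pathway genes rose and 1 fell in B16F10 cells, and 14 rose and 2 fell in 6694c2 cells. With IFNγ these counts were 17 and 3 in B16F10 cells and 17 and 1 in 6694c2 cells. Of all genes, 12.7% rose and 11.2% fell with IFNβ in B16F10 and 10.4% and 7.86% in 6694c2 cells, and with IFNγ 12% rose and 10.8% fell in B16F10 and 7.89% and 5.66% in 6694c2 cells. Against IFNβ, STING agonist left 0 pathway genes higher and 11 lower in B16F10 cells, and 1 higher and 11 lower in 6694c2 cells, beside 8.76% and 11% of all genes in B16F10 and 7.95% and 9.53% in 6694c2 cells. The 1 higher was Traf1, an adaptor of TNF receptor signalling, at 8.14 CPM with STING agonist and 5.78 CPM with IFNβ (log2 fold change 0.47, edgeR adjusted p = 0.0120).

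A second list held 47 genes known as NF-κB outputs, such as chemokines, adhesion molecules and survival factors, of which 44 were tested. In 6694c2 cells 0 rose and 0 fell with STING agonist, beside 0.203% and 0.156% of all genes. At shares this low a count of 0 does not set the list apart from all genes. In B16F10 cells 2 rose and 1 fell, beside 1.93% and 1.53% of all genes, and the median log2 fold change of 0.18 stood beside 1.05 for 25 interferon-response genes. Between the vehicle groups, 25 of the 44 were called higher and 6 lower in 6694c2 cells, beside 28.7% and 29.3% of all genes. With the 6694c2-type reads subtracted, 1 rose and 1 fell in B16F10 cells, and the median is not given for that setting. Ccl5, a T-cell chemokine also controlled by interferon regulatory factors, rose from 10.4 to 65.1 CPM (log2 fold change 2.65, edgeR adjusted p = 1.31e-100) and was above its 14.8 CPM with IFNβ (log2 fold change 2.12, edgeR adjusted p = 1.59e-82). Cd44, an adhesion receptor, fell by 0.18 on the log2 scale (edgeR adjusted p = 0.0292) and was called in 10 of 15 alternatives. The other one to rise was Vcam1, an adhesion molecule for leucocytes, from 0.565 to 2.14 CPM (log2 fold change 1.90, edgeR adjusted p = 5.64e-05).

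The share of 6694c2-type transcripts moved with Vcam1 as well. Scaled to total reads, Vcam1 stood at 221.6 CPM in 6694c2 vehicle cells, and that share amounted to 0.488 CPM in the B16F10 vehicle libraries, which measured 0.603 CPM, and to 2.23 CPM in the STING agonist libraries, which measured 2.31 CPM. With those reads subtracted it was not called (log2 fold change 0.65, edgeR adjusted p = 0.912). The interleukin-1 receptor gene Il1r1 was likewise called higher in B16F10 cells at 0.412 CPM with STING agonist, where that share amounted to 0.390 CPM, and was not called after subtraction (edgeR adjusted p = 0.378). Cxcl5, a neutrophil chemokine called higher than with IFNβ, stood at 0.628 CPM with STING agonist, of which that share amounted to 0.539 CPM. Ccl5 was measured at 70.4 CPM there, where the share amounted to 0.00346 CPM.

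With IFNβ, 10 of the 44 output genes rose and 1 fell in B16F10 cells, and 12 rose and 4 fell in 6694c2 cells. With IFNγ the counts were 7 and 1 in B16F10 cells and 14 and 1 in 6694c2 cells. The shares of all genes are those given beside the pathway list. Against IFNβ, STING agonist left 3 of the 44 higher and 10 lower in B16F10 cells, the 3 being Ccl5, Vcam1 and Cxcl5. In 6694c2 cells 5 were higher and 11 lower, and of all genes 8.76% and 11% in B16F10 and 7.95% and 9.53% in 6694c2 cells. Of those 5, Vcam1 stood at 236.3 CPM with STING agonist and 168.7 CPM with IFNβ (log2 fold change 0.46), Csf2, a myeloid growth factor, at 8.51 and 5.23 CPM (0.68), and Cxcl1, a neutrophil chemokine, at 8.23 and 5.39 CPM (0.57). None of these 3 was called between STING agonist and vehicle in 6694c2 cells.

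Of 10 receptor genes that feed NF-κB, 2 rose and 0 fell with STING agonist in B16F10 cells, beside 1.93% and 1.53% of all genes. In 6694c2 cells 0 of the 10 rose and 0 fell, beside 0.203% and 0.156% of all genes. Besides Il1r1, the one to rise was Tlr3, the endosomal sensor of double-stranded RNA, from 20.2 to 29.2 CPM (log2 fold change 0.52, edgeR adjusted p = 9.32e-09). Set against IFNβ, STING agonist left 2 of the 10 receptors higher and 3 lower in B16F10 cells, beside 8.76% and 11% of all genes. In 6694c2 cells the counts were 2 and 6, beside 7.95% and 9.53% of all genes. The median log2 fold changes were -0.20 in B16F10 and -0.26 in 6694c2 cells. Those higher in B16F10 cells were Tlr4 (log2 fold change 0.22, edgeR adjusted p = 0.0469) and Tnfrsf1b (1.28, edgeR adjusted p = 0.0483), each in fewer than 9 of 15 alternatives. Those higher in 6694c2 cells were Il1r1 (0.75) and Tlr4 (0.32). Tnfrsf1b, a TNF receptor, stood at 0.952 CPM of total reads in the B16F10 STING agonist libraries, where the share of 6694c2-type transcripts amounted to 0.505 CPM. Of 6 genes of the STING and TBK1 axis that were tested, only Trim56, a ubiquitin ligase, rose in B16F10 cells (log2 fold change 0.35, edgeR adjusted p = 0.00175). In 6694c2 cells 0 of the 6 rose and 0 fell against vehicle, beside 0.203% and 0.156% of all genes. Tmem173, which encodes STING, stood at a mean of 28.8 CPM in B16F10 vehicle cells and 1.92 CPM in 6694c2 vehicle cells. Whether this difference bears on the response of the members or of the other lists in 6694c2 cells was not tested.

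The interferon-response genes were read in the same libraries. In B16F10 cells 22 of 25 rose with STING agonist and 0 fell, beside 1.93% and 1.53% of all genes. They were led by Ifit1, Isg15 and Rsad2, which had log2 fold changes of 2.17, 1.93 and 1.58. In 6694c2 cells 5 rose and 2 fell (median log2 fold change 0.28), beside 0.203% and 0.156% of all genes. With the B16F10-type reads subtracted, 4 rose and 2 fell. In the same comparison 5 of 7 melanocyte genes were called lower, and 0 after that subtraction. Irf7, a transcription factor that amplifies interferon, had a log2 fold change of 1.62 there, Ifit3 of 0.97 and Ifi44 of 1.87, and the guanylate-binding protein genes Gbp2 and Gbp3 had -1.41 and -1.12. With IFNβ 25 of the 25 rose in each line, their median fold change being 4.06 in B16F10 and 7.18 in 6694c2 cells on the log2 scale. With IFNγ 24 of 25 rose in each. Beside these, 12.7% of all genes rose with IFNβ in B16F10 and 10.4% in 6694c2 cells, and 12% and 7.89% with IFNγ. Over all comparisons against vehicle the members had fold changes between -0.73 and 0.66 on the log2 scale, and in 6694c2 cells with STING agonist their median was 0.05.

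**Figure D4:**
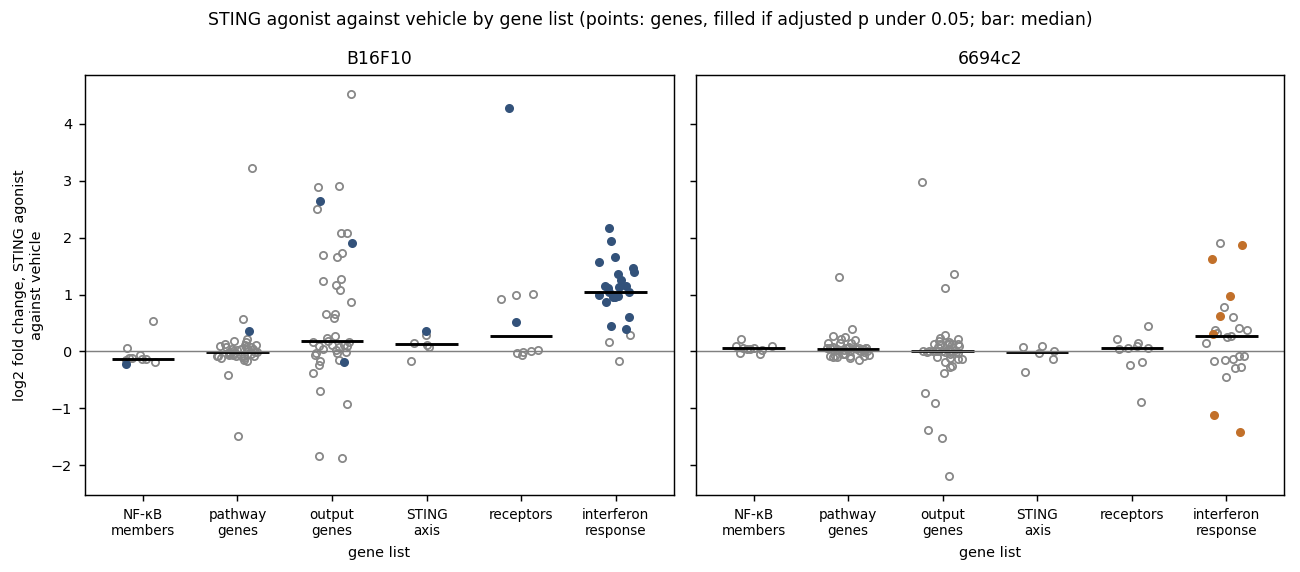
Log2 fold change of STING agonist against vehicle (y axis) for the genes of each list (x axis) in B16F10 (left) and 6694c2 cells (right); points are genes, filled where the adjusted p is under 0.05, and bars are medians. In B16F10 cells the interferon-response genes center on 1.05 while the NF-κB members center on -0.13, and open points far from 0 among the output genes are not called.

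The members did not share 1 pattern. Over 24 libraries, with the mean of each line subtracted, the Pearson correlation of log2 CPM between the 45 pairs of members ranged from -0.46 to 0.69 with a median of 0.13, given as a description because the points share treatments, libraries and depth. Among 10482 other genes of at least 1 CPM on average in both lines, the gene most like Rela was Mta1 (r = 0.927), followed by Clint1 (0.880), and those most like Relb were Fkbp4 (0.910) and Spc24 (0.898). For Nfkb2 they were Eef2k (0.857) and Igfbp4 (0.800), for Nfkb1 Larp1 (0.829) and Crebzf (0.822), and for Rel Qser1 (0.622) and Foxj3 (0.620). For the inhibitors they were Cnot3 (0.685) and Lrp5 (0.650) with Nfkbia, Dok4 (0.795) and Stat5b (0.772) with Nfkbie, and Vps11 (0.809) and Aldoa (0.804) with Nfkbiz. Tnfaip3 was most like Itpr3 (0.854) and Gprc5b (0.778), and Birc3 most like Jcad (0.801) and Kdm3a (0.792). No member was among the 2 genes most like another member.

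Gene coordinates here are those of the deposited counts, whose build is not stated. The subunit genes lie on chromosome 3 from 135584655 to 135691547 (Nfkb1, ENSMUSG00000028163), chromosome 19 from 46304737 to 46312090 (Nfkb2, ENSMUSG00000025225) and from 5637483 to 5648130 (Rela, ENSMUSG00000024927), chromosome 11 from 23736847 to 23770970 (Rel, ENSMUSG00000020275) and chromosome 7 from 19606217 to 19629438 (Relb, ENSMUSG00000002983). The inhibitor genes lie on chromosome 12 from 55489411 to 55492647 (Nfkbia, ENSMUSG00000021025), chromosome 17 from 45555716 to 45563169 (Nfkbie, ENSMUSG00000023947) and chromosome 16 from 55811375 to 55838899 (Nfkbiz, ENSMUSG00000035356). Tnfaip3 (ENSMUSG00000019850) lies on chromosome 10 from 19000910 to 19015657 and Birc3 (ENSMUSG00000032000) on chromosome 9 from 7848699 to 7873186. Counts are per gene over the exons the files list, so isoforms were not resolved.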

How the data were processed

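Bulk RNA of 24 libraries (8 groups of 3) was analysed, and the single-cell samples of the series were not analysed here. The authors deposited raw counts per gene, made with cutadapt for trimming, STAR for alignment and Rsubread for counting. The genome build, annotation and strand setting for these counts are not given in the sources used here. Coordinates in the files match GENCODE M21 on GRCm38 in start, end and strand for 91.4% of the genes shared with it, and the ends of Nfkb2, Nfkbia and Nfkbie differ from it.

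A gene was tested if its reads in the 24 libraries came to 10 or more (21138 of 49315). Each line was fitted on its 12 libraries, and differences between lines on all 24, with TMM normalization and edgeR's quasi-likelihood test (edgeR 4.0.16, R 4.3.3) with Benjamini-Hochberg adjustment over all genes. Adjusted p under 0.05 was called. Levels are CPM or RPKM on the TMM scale of all 24 libraries. Standard errors and 95% intervals were derived from each fold change with its F statistic. With 3 libraries a group, the smallest p of an exact permutation test on 1 gene is 0.1. Libraries of a group correlated at 0.997 to 0.999 across genes (log2 CPM) and differed by more than sampling noise (chi-square per degree of freedom 2.89 to 18.8).

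Transcripts of the other line were estimated as the median share of its vehicle level over genes of at least 50 CPM there and under 2% of that here. Alternatives were DESeq2 1.42.0, RLE size factors, a replicate block, a robust fit, no filter, the filterByExpr minimum, that share subtracted, only the 6 libraries compared, all 24 in 1 fit, and each library left out. The fit was also run on simulated counts. The changes set there were larger than most member changes here, so that run does not show how well smaller ones are found.

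The text names all members and, from each list and line, up to 3 called genes in each direction, by smallest p, for STING agonist against vehicle and up to 3 called higher with STING agonist than with IFNβ, and the 2 genes most like each member. Tmem173 was named outside this rule, as the gene of STING. Members, lists and rule were chosen with earlier results of these data known.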

Additional observations from a re-analysis of the deposited data

Results flagged for a closer look

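The effect of an interferon on 4 members differed between the lines by an interaction test over all 24 libraries (edgeR, adjusted p under 0.05), which is the reason they are listed. With IFNγ, the effect on Nfkb2 was lower in B16F10 than in 6694c2 cells by -0.56 on the log2 scale (adjusted p = 5.08e-05) and that on Rela by -0.42 (adjusted p = 0.00122), and both held in all 19 alternatives. With IFNβ, the effect on Relb was lower in B16F10 cells by -0.52 (adjusted p = 0.0359, called in 13 of 19 alternatives) and that on Nfkbiz by -0.50 (adjusted p = 0.0494, called in 10 of 19). The call for Nfkbiz was lost with the reads of the other line subtracted. The cause of these differences was not tested.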

How the results depend on the processing

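Of 38 calls among the members, 24 held in every alternative. These include all 9 calls between the vehicle groups of the lines, which involve no treatment. The only call for STING agonist against vehicle, Nfkb1 in B16F10 cells, was kept in 9 of 15. Over 2200 refitted member values, 65 lost and 32 gained a call, and 0 reversed a called direction. The counts of members called that moved by over 1.5 times were as follows. In B16F10 cells STING agonist against vehicle went from 1 to 0 with all 24 libraries in 1 fit (0 to 1 with 1 library left out), IFNβ against vehicle from 3 to 1 with no filter and with only the 6 libraries compared (1 to 3), and STING agonist against IFNβ from 2 to 1 with only those 6 (1 to 2). STING agonist against IFNγ in B16F10 cells, at 5, ranged from 2 to 5 with 1 library left out. In 6694c2 cells IFNβ against vehicle went from 2 to 1 with only the 6 libraries compared (1 to 3 with 1 left out) and STING agonist against IFNβ from 1 to 0 with no filter (0 to 2). The difference between lines went for IFNβ from 2 to 1 with no filter, with the replicate block and with the other line's reads subtracted (0 to 4 with 1 left out), and for IFNγ from 2 to 5 by DESeq2 (2 to 4 with 1 left out). The cause was not tested. Over all genes, the 732 calls for STING agonist against vehicle in B16F10 cells became 1271 with only the 6 libraries compared and 459 with all 24, and the 76 in 6694c2 cells became 44 with the filterByExpr minimum, 159 with no filter, 126 with the replicate block, 132 with only 6 libraries and 45 with the other line's reads subtracted. The 449 differences between lines became 743 by DESeq2 and 166 with those reads subtracted. Libraries with the same replicate number deviated together with a correlation between -0.42 and 0.34, not above 0.1 in every pair, so the numbers were not taken to pair the samples. The replicate block changed the count of members called in 3 comparisons: to 3 for IFNβ and 3 for IFNγ against vehicle in 6694c2 cells and to 1 for the difference in the IFNβ effect. For Tnfaip3, Birc3 and Rel in B16F10 cells, depth limits what could be seen.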
